A study of Homo sapiens with 18 samples.

Results

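The AP-1 and immediate early genes described here are *FOS*, *FOSB*, *FOSL1*, *FOSL2*, *JUN*, *JUNB*, *JUND*, *ATF3*, *EGR1* and *IER3*. The 10 genes were taken by name from a table of 28100 genes, and all 10 were found in it and passed the filter on low counts. Their RNA was measured in LNCaP, an androgen-responsive human prostate cancer cell line labelled wild type, after 48 h in 6 media, with 3 libraries of polyadenylated RNA per medium. All cells were first kept in low-serum RPMI, and the control then received RPMI with more serum. Macrophages derived from THP-1, a line of leukaemic monocytes, gave the conditioned media M0 (unpolarised), M1 and M2 (the opposite polarised states, usually called pro-inflammatory and immunosuppressive), each diluted 1:4 with that RPMI. The last 2 media were M1 medium with DMSO, a solvent, and M1 medium with 0.7 μmol/l IKK16, an inhibitor of the IκB kinases that free NF-kB to enter the nucleus. No DMSO is labelled for the control, M0, M1 and M2 media. The comparisons asked how secreted macrophage products change LNCaP gene expression and which part of the M1 response needs NF-kB signalling. The labels number the replicates without saying that they are separate cultures, so p-values measure only the spread between these libraries, which may be technical. In such bulk libraries, fewer cells expressing a gene and less of its RNA per cell cannot be told apart.

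AP-1 is a family of transcription factors that bind DNA as pairs of basic leucine zipper proteins. JUN proteins pair with each other, with FOS proteins or with ATF proteins such as ATF3, whereas FOS proteins need a JUN partner. Many of these genes are immediate early genes, which respond to growth factors, cytokines and stress within minutes, without new protein synthesis, through MAP kinases and factors already bound at their promoters. In this set the zinc-finger factor EGR1 and the stress protein IER3 are immediate early products that are not basic leucine zipper proteins. In prostate tissue AP-1 members are known to be expressed in cancer cells and to interact with androgen receptor signalling. The libraries here were taken 48 h after the medium change, so they show levels reached by then and not the first hours.

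Promoters are printed for *EGR1* and *JUNB*, which had the largest rises in M1 medium, and for *JUN* and *FOS*, which rose together in M1 medium and moved in opposite directions with IKK16. Each run is the 250 bases before the gene's start in RefSeq (GRCh38.p14), read 5′ to 3′ on the gene's strand: *JUN* at chr1:58784048-58784297 (minus), *JUNB* at chr19:12791236-12791485 (plus), *FOS* at chr14:75278578-75278827 (plus) and *EGR1* at chr5:138465229-138465478 (plus). Capitals mark matches to the motifs searched on both strands.
JUN: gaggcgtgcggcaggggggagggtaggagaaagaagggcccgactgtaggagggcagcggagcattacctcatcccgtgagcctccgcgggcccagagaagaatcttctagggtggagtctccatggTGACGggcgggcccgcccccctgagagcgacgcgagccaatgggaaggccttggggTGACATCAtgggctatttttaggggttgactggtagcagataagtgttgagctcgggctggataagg
JUNB: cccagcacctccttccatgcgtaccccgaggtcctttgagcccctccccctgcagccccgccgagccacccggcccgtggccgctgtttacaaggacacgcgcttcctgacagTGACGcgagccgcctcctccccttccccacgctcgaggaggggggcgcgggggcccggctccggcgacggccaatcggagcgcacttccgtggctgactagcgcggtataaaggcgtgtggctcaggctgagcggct
FOS: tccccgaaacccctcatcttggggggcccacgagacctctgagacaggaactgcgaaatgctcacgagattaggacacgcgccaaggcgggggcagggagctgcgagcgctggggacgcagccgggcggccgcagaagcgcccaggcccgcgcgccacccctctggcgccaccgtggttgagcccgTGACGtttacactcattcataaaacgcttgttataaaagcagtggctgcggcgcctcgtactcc
EGR1: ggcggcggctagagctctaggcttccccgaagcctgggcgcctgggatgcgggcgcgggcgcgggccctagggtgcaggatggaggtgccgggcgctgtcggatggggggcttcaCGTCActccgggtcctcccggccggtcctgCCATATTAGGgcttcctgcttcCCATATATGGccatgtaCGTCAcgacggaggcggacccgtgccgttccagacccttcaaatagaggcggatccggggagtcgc

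Within the stretch searched, *EGR1* alone of the 8 members with a promoter entry matched the CArG box, the binding site of serum response factor. It held 2, at -105 to -96 and -83 to -74 from the start. For the other members this says only that the motif did not match in that stretch. Sites further from the start were not searched. Of 35116 promoter windows of this length, 1.16% held a CArG box. *JUN* held TGACATCA at -67 to -60, a sequence described as a site for JUN and ATF pairs. *ATF3* held the same letters at -123 to -116 in its window at chr1:212565157-212565406, against 2.37% of all windows. Its other window, chr1:212614768-212615017, matched no motif searched. *JUND* held the full cyclic AMP response element TGACGTCA at -200 to -193 (1.65% of windows). Its first 5 letters, TGACG, stood in *FOS*, *FOSB*, *FOSL2*, *JUN*, *JUNB*, *JUND* and *EGR1* and in 21.2% of all windows, which include those with the full element. The AP-1 site TGAGTCA (4.2% of windows) and the kappa B site (5.21%) matched in none of these windows, which says only that these letters are absent from the stretch searched. *FOSL1* and *IER3* had no entry.

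The sum of gene counts in a library ranged from 24202742.5 to 33814819. LNCaP markers were present in all groups: each of 11 prostate luminal genes had counts. Their summed level was 3329 to 3405 CPM in M1 medium against 9088 to 9265 CPM in control, but they did not move together. In M1 medium 4 of the 11 rose, 6 fell and 1 did not pass, beside 32.7% of all genes higher and 32.1% lower. *KLK3*, the largest part of the control sum, fell from 3711 ± 209 to 154 ± 6.76 CPM, while *FOLH1* rose from 863 ± 38.0 to 1030 ± 22.2 CPM (SD, n = 3). Of 16 macrophage markers, 7 passed the filter, of which 5 rose and 2 fell in M1 medium against control. The summed level of all 16 was 274 to 295 CPM in M1 medium against 228 to 231 CPM in control, most of it *CSF1R* (195 ± 8.29 and 223 ± 1.06 CPM, SD, n = 3). With DMSO the sum was 261 to 273 CPM and with IKK16 264 to 280 CPM. With IKK16 against DMSO 1 of the 7 rose and 4 fell. The leukocyte markers *PTPRC* and *TYROBP* had 0 counts in the M1 libraries and in those with DMSO, while *CTSS* (0.0310 ± 0.0537 to 28.0 ± 2.04 CPM) and *ITGAM* (0.160 ± 0.161 to 19.9 ± 1.45 CPM) rose from control to M1 medium. The part of these markers in the results was not tested.

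M1 medium raised 7 of the 10 genes over control and lowered none (edgeR, adjusted p under 0.05), against 32.7% of all 17073 genes tested that were higher and 32.1% that were lower. The median log2 fold change of the 10 was 1.38, against -0.00 over all genes. *EGR1* (12.8-fold), *JUNB* (10.4-fold) and *FOS* (4.67-fold) rose most, followed by *JUN* (3.40-fold), *ATF3* (2.95-fold), *FOSL2* (2.31-fold) and *FOSB* (1.56-fold). *JUND*, *FOSL1* and *IER3* did not pass.

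**Figure D1:**
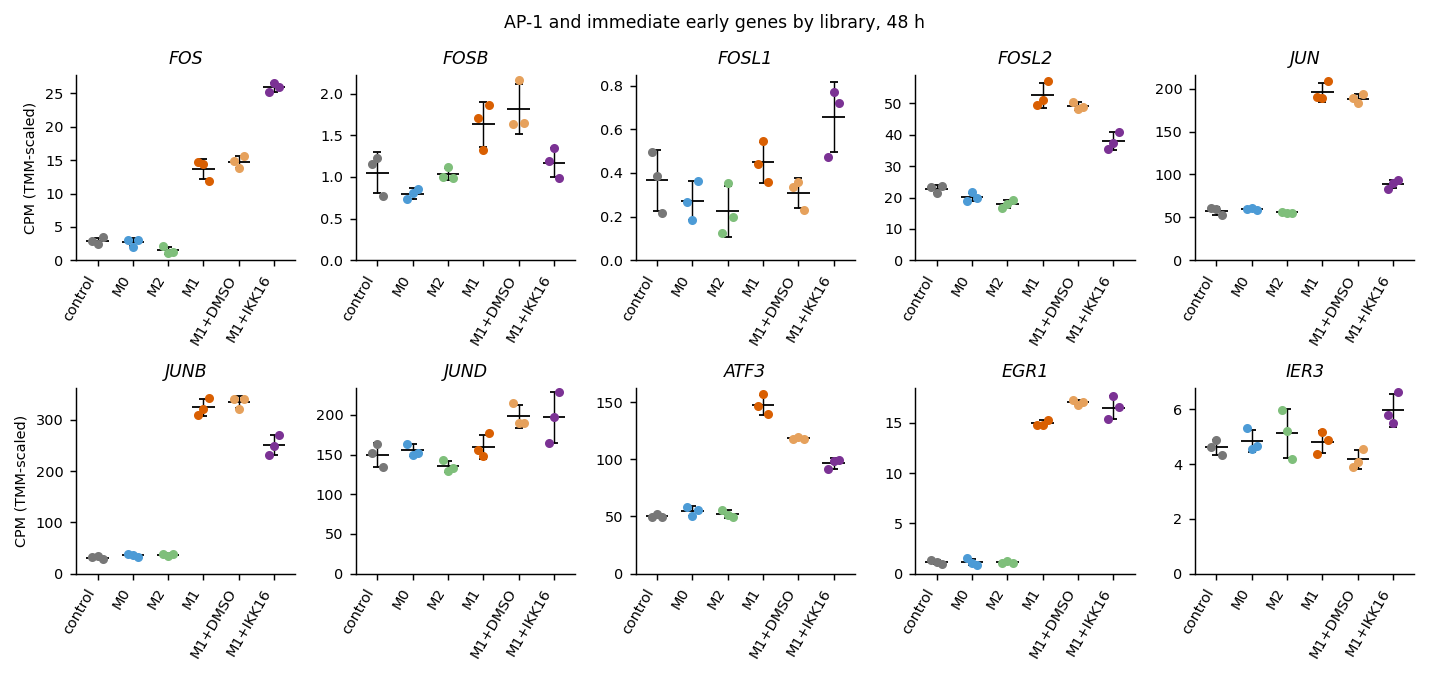
TMM-scaled CPM (vertical axis, linear from 0 and scaled separately for each gene) of the 10 genes in each of the 18 libraries. Points are libraries, horizontal lines are means and bars are the SD of 3 libraries. Control, M0 and M2 libraries lie together at the bottom for JUN, JUNB, EGR1, ATF3, FOS and FOSL2, and IKK16 libraries stand highest for FOS (25.2 to 26.5 CPM) and, for JUN, lie between these and the M1 and DMSO libraries (83.2 to 93.0 CPM).

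Among the JUN genes, *JUNB* (chromosome 19, 12791486 to 12793315), which restrains JUN in some settings and activates in others, showed the largest change. Its level was 31.7, 34.1 and 27.6 CPM in the control libraries and 310, 321 and 342 CPM in the M1 libraries. The lowest M1 library stood far above the highest control library (log2 fold change 3.38 ± 0.08 SE, edgeR adjusted p = 1.34e-20). *JUN* (chromosome 1, 58780791 to 58784047), the founding member and a strong activator, was at 60.6, 59.6 and 52.7 CPM in control and at 191, 189 and 209 CPM in M1 medium. These groups did not overlap either (1.77 ± 0.06, edgeR adjusted p = 6.62e-18). *JUND* (chromosome 19, 18279694 to 18281622), usually expressed at a steady level in resting cells, was at 151, 164 and 134 CPM in control and 155, 148 and 177 CPM in M1 medium. The ranges overlapped, and the approximate 95% interval of its log2 fold change ran from -0.08 to 0.28 (edgeR adjusted p = 0.365). *HOOK2* shares 865 bases with *JUNB*, and the use of strand in the counting is not given in the sources used here, so reads in the shared stretch cannot be assigned. *HOOK2* was at 112 ± 4.50 CPM in control and 165 ± 12.2 CPM in M1 medium (SD, n = 3).

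The FOS genes stood lower and differed more among themselves. *FOS* (chromosome 14, 75278828 to 75282230), the partner that gives JUN its strongest DNA binding, was at 2.83, 2.49 and 3.41 CPM in control and 14.8, 14.4 and 11.9 CPM in M1 medium (log2 fold change 2.22 ± 0.15, edgeR adjusted p = 4.03e-12). *FOSL2* (chromosome 2, 28392858 to 28417317), which encodes FRA2 and lacks the strong activation domain of FOS, was at 23.2, 21.4 and 23.5 CPM in control and 49.5, 51.0 and 57.2 CPM in M1 medium. Neither gene had a control library as high as any M1 library (*FOSL2* 1.21 ± 0.07, edgeR adjusted p = 6.54e-13). The antisense RNA *FOSL2-AS1* shares 1815 bases with *FOSL2*, so the reads of the pair cannot be told apart in that stretch. In this comparison *FOSL2-AS1* rose too, at 2.93 ± 0.229 CPM in control and 6.03 ± 0.757 CPM in M1 medium (SD, n = 3). *FOSB* (chromosome 19, 45467996 to 45475179), an activator like FOS, was near 1 CPM, with 1.15, 1.23 and 0.776 CPM in control and 1.70, 1.33 and 1.86 CPM in M1 medium. Its rise was small (0.64 ± 0.21, edgeR adjusted p = 0.0117) and was lost without control replicate 3 (0.45, edgeR adjusted p = 0.0826) or without M1 replicate 3 (0.54, edgeR adjusted p = 0.0544). *FOSL1* (chromosome 11, 65892049 to 65900545), which encodes FRA1, had 7 to 15 counts per control library and 11 to 15.5 per M1 library. At this depth its change spans a wide interval, from -0.44 to 1.04 on the log2 scale (edgeR adjusted p = 0.505).

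*EGR1* (chromosome 5, 138465479 to 138469303), whose protein binds GC-rich promoter sites, rose most in fold of the 10 genes. It was at 1.35, 1.16 and 0.993 CPM in control and at 14.8, 14.8 and 15.3 CPM in M1 medium, a narrow band that lay wholly above the control (log2 fold change 3.68 ± 0.13, edgeR adjusted p = 2.1e-17). *ATF3* (chromosome 1, 212565407 to 212620777), a stress-induced factor that often represses its targets, was at 49.4, 51.9 and 49.2 CPM in control and 147, 157 and 140 CPM in M1 medium (1.56 ± 0.06, edgeR adjusted p = 2.2e-16). The table holds 6 transcripts of *ATF3* with totals of 39673 to 44562.5 counts over the 18 libraries, and the values are those of the transcript with the most. *IER3* (chromosome 6, 30743199 to 30744547), a cell survival gene known as an NF-kB target, behaved differently from these. Its level was 4.61, 4.88 and 4.34 CPM in control and 4.38, 5.17 and 4.86 CPM in M1 medium, with overlapping ranges and an approximate 95% interval of -0.19 to 0.31 on the log2 scale (edgeR adjusted p = 0.7). *IER3-AS1* shares 475 bases with *IER3* and had more counts than it, 2908.5 against 2520.5 over all libraries, so the level of *IER3* is uncertain where the reads overlap. *IER3-AS1* was 4.32 ± 0.498 CPM in M1 medium and 6.30 ± 0.446 CPM in control (SD, n = 3, log2 fold change -0.54 ± 0.15, edgeR adjusted p = 0.00259).

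Levels can be set against each other only per transcript length, here as RPKM (CPM divided by the length in kilobases of the matched GENCODE transcript). In control medium *JUND* was the most abundant member at 80.3 ± 7.99 RPKM (SD, n = 3), ahead of *ATF3* at 26.2 ± 0.781, *JUNB* at 17.1 ± 1.82 and *JUN* at 16.3 ± 1.22 RPKM. The last 2 did not differ beyond their spread. *FOSL2* (3.39 ± 0.173 RPKM), *FOS* (1.35 ± 0.216), *EGR1* (0.372 ± 0.0569), *FOSB* (0.279 ± 0.0643) and *FOSL1* (0.219 ± 0.0835) lay below, beside *IER3* at 3.71 ± 0.216 RPKM. In M1 medium *JUNB* led at 178 ± 9.03 RPKM, and *JUND* (85.8 ± 8.02), *ATF3* (77.2 ± 4.55) and *JUN* (55.3 ± 3.11) followed. The M1 libraries of *JUND* and *ATF3* overlapped on this scale. The place of *ATF3* in both orders depends on the transcript chosen. Its 6 transcripts had totals of 39673 to 44562.5 counts but lengths of 482 to 2033 bases, and the 1 used has 1917.

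The composition of each family shifted. Of the summed JUN-family RPKM, *JUND* held 70.6% ± 0.491 in control and 26.9% ± 1.07 in M1 medium, while *JUNB* went from 15.03% ± 0.166 to 55.8% ± 1.13 (SD, n = 3). The share of *JUN* moved less, from 14.3% ± 0.613 to 17.3% ± 0.169. The JUN-family sum was 114 ± 10.9 RPKM in control and 319 ± 19.3 RPKM in M1 medium. The FOS-family sum was 5.23 ± 0.290 RPKM in control and 14.9 ± 0.106 RPKM in M1 medium, so FOS-family RNA stood far below JUN-family RNA in either medium. *FOSL2* held 64.7% ± 0.319 of the FOS-family RPKM in control and 52.7% ± 4.46 in M1 medium, and *FOS* 25.7% ± 3.02 and 42.6% ± 4.52. For each of these 5 shares the control and M1 libraries did not overlap. With 3 libraries against 3 an exact permutation test of a share cannot go below p = 0.1, so none was run.

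**Figure D2:**
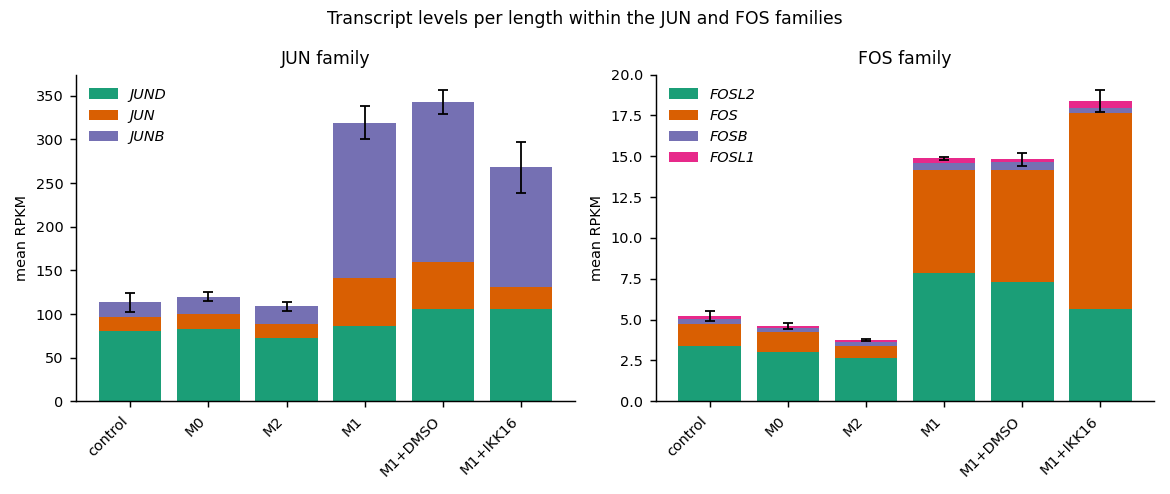
Mean RPKM (CPM per kilobase of transcript, vertical axes from 0) of the JUN genes (left) and FOS genes (right) stacked by medium. Error bars are the SD of the family sum over 3 libraries. JUNB makes up 55.8% of the JUN-family sum in M1 medium against 15.03% in control, and FOS makes up 65.4% of the FOS-family sum with IKK16 against 46.0% with DMSO.

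M0 medium moved none of the 10 genes past the threshold against control (edgeR), while 7.07% of all genes were higher and 4.51% lower. At an unadjusted p under 0.05, 2 of the 10 and 4879 of all genes passed, and DESeq2 called none of the 10. *JUNB*, at 39.1, 35.5 and 32.6 CPM in M0 medium, had a log2 fold change of 0.20 ± 0.08 (edgeR adjusted p = 0.105), which passed only without control replicate 2 (0.27, edgeR adjusted p = 0.0386). *EGR1*, at 1.54, 1.07 and 0.889 CPM, overlapped the control, with an approximate 95% interval of -0.40 to 0.36 on the log2 scale.

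In M2 medium *FOS* and *FOSL2* were lower than in control and *JUNB* slightly higher, so 2 of the 10 genes fell and 1 rose, against 3.35% and 5.34% of all genes. *FOS* was at 2.09, 1.12 and 1.27 CPM in M2 medium, below every control library (log2 fold change -0.95 ± 0.20, edgeR adjusted p = 0.00822). *FOSL2* was at 16.8, 17.99 and 19.1 CPM, also below every control library (-0.34 ± 0.08, edgeR adjusted p = 0.0105). *JUNB* stood at 38.9, 34.3 and 38.1 CPM (0.25 ± 0.08, edgeR adjusted p = 0.0489). None of these calls held throughout. A fit of these groups alone gave edgeR adjusted p = 0.0541 for *FOS*, 0.0576 for *FOSL2* and 0.136 for *JUNB*. Without M2 replicate 2 the adjusted p of *FOS* was 0.0615 (edgeR), the call of *FOSL2* needed control replicate 1 (0.065 otherwise) and M2 replicate 1 (0.0856 otherwise), and *JUNB* lost its call under each of 10 alternatives, the replicate block among them (0.0624).

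Set directly against M0 medium, M2 medium changed none of the 10 by edgeR, against 0% of all genes higher and 0.105% lower. At an unadjusted p under 0.05, 3 of the 10 genes and 927 of all genes passed. *FOS* had a log2 fold change of -0.84 ± 0.21 (edgeR adjusted p = 0.193). DESeq2 called it lower (adjusted p = 0.00734), as did edgeR without a filter (0.0393) and without M2 replicate 1 (0.0184). Over all its alternatives the adjusted p ran from 0.00734 to 0.988.

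M1 medium was also compared with the other macrophage media, which share the M1 libraries with the comparison against control. Against M0 medium 7 of the 10 were higher and none lower (33.4% and 33.6% of all genes), and against M2 medium 9 and none (33.8% and 33.7%). The fold changes of *EGR1* were 13.0 and 13.3, of *JUNB* 9.08 and 8.74, of *FOS* 5.04 and 9.03 and of *JUN* 3.28 and 3.51, against M0 and M2 medium in that order. The 2 genes added in the comparison with M2 medium were *JUND* (log2 fold change 0.24 ± 0.09, edgeR adjusted p = 0.0246) and *FOSL1* (0.97 ± 0.42, edgeR adjusted p = 0.0448). *JUND* lost its call without M1 replicate 3 (edgeR adjusted p = 0.143), M2 replicate 2 (0.0846) or M2 replicate 3 (0.0624) and with the length trend removed (0.0566), and *FOSL1*, with 3.5 to 11 counts per M2 library, lost it under 8 alternatives, with edgeR adjusted p up to 0.208. *IER3* passed in neither comparison.

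DMSO alone changed *ATF3* among the 10 genes. It was at 118, 119 and 118 CPM with DMSO and 147, 157 and 140 CPM in M1 medium without it (log2 fold change -0.32 ± 0.06, edgeR adjusted p = 0.00521). This made 1 lower and none higher, against 1.97% and 2.57% of all genes, and the call was lost without M1 replicate 2 (edgeR adjusted p = 0.0602). *JUND* stood higher with DMSO, at 215, 189 and 189 CPM, without overlap with M1 medium, and missed the threshold (0.31 ± 0.09, edgeR adjusted p = 0.0551). DESeq2 (adjusted p = 0.0217) and edgeR in a fit of these groups alone (0.00625) called it. *EGR1* stood slightly higher with DMSO, also without overlap, and did not pass (0.19 ± 0.09, edgeR adjusted p = 0.233). It was at 17.3, 16.8 and 17.1 CPM with DMSO and 14.8, 14.8 and 15.3 CPM in M1 medium without it. IKK16 was compared with DMSO, the group that held the solvent in M1 medium.

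IKK16 did not move the 10 genes in the same direction. With IKK16 in M1 medium *JUN*, *JUNB*, *FOSL2*, *FOSB* and *ATF3* were lower than with DMSO, *FOS*, *FOSL1* and *IER3* were higher, and *EGR1* and *JUND* did not pass. These are 5 lower and 3 higher of the 10 (edgeR), against 13.2% and 13.9% of all genes. Of the 3 higher, only *FOS* had passed as raised in M1 medium against control. The median log2 fold change of the 10 was -0.17, and that of all genes 0.0021.

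**Figure D3:**
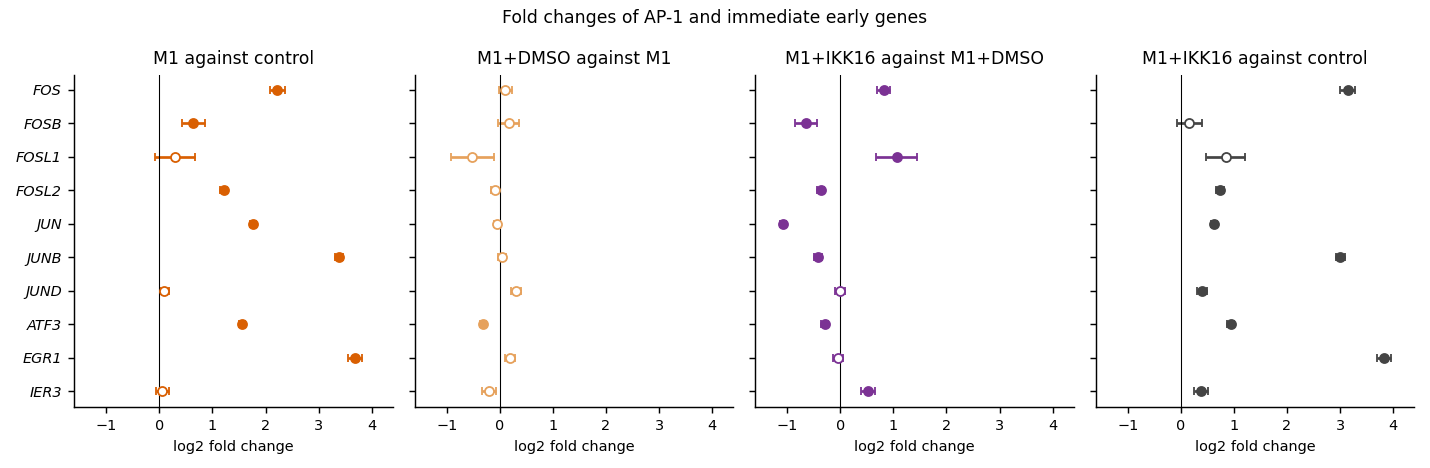
Log2 fold changes (horizontal axes) of the 10 genes in 4 comparisons, with bars for the SE from edgeR. Filled points have an adjusted p under 0.05 and open points do not. FOS lies to the right of 0 both in M1 medium against control (2.22) and with IKK16 against DMSO (0.82), whereas JUN lies right of 0 in the first (1.77) and left of it in the second (-1.09).

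*JUN* responded most. It was at 189, 183 and 193 CPM with DMSO and 83.2, 89.7 and 93.0 CPM with IKK16, 2.12-fold lower and without overlap (log2 fold change -1.09 ± 0.06, edgeR adjusted p = 1.46e-12). With IKK16 *JUN* nevertheless exceeded control (0.62 ± 0.06, edgeR adjusted p = 3.84e-09). Of the excess of the DMSO mean over the control mean, 23.7% ± 3.8 (SD over the 3 IKK16 libraries) was left, a value that sets DMSO and IKK16 libraries against a control without solvent. *JUNB* kept most of its rise, at 341, 320 and 341 CPM with DMSO and 231, 249 and 271 CPM with IKK16 (-0.42 ± 0.07, edgeR adjusted p = 0.000119), with 72.3% ± 6.51 of its excess left. *HOOK2*, which overlaps *JUNB*, was also lower (-0.26 ± 0.06, edgeR adjusted p = 0.00154). *ATF3* went from 118, 119 and 118 to 91.1, 98.2 and 99.8 CPM (-0.30 ± 0.06, edgeR adjusted p = 0.000735) with 67.7% ± 6.79 of its excess left. *FOSL2* went from 50.4, 48.1 and 49.0 to 35.6, 37.4 and 41.0 CPM (-0.37 ± 0.07, edgeR adjusted p = 0.000426) with 57.7% ± 10.5 left. These 4 genes all stayed above control with IKK16. *FOSL2-AS1*, which overlaps *FOSL2*, did not pass with IKK16 against DMSO (-0.12 ± 0.13, edgeR adjusted p = 0.542). *FOSB* fell from 1.64, 2.16 and 1.65 to 1.19, 1.34 and 0.987 CPM (-0.65 ± 0.22, edgeR adjusted p = 0.0284) and no longer differed from control past the threshold (edgeR adjusted p = 0.588). That fall was lost with DESeq2 (adjusted p = 0.067), without DMSO replicate 2 (edgeR adjusted p = 0.161), without IKK16 replicate 1 (0.0673) and without IKK16 replicate 3 (0.114).

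*FOS* moved the other way. It was at 14.8, 13.8 and 15.6 CPM with DMSO and at 25.2, 26.5 and 26.0 CPM with IKK16, 1.76-fold higher with no overlap (log2 fold change 0.82 ± 0.12, edgeR adjusted p = 1.58e-05). Over its alternatives this adjusted p ran from 3.74e-09 to 0.000356. Against control *FOS* was 4.67-fold higher in M1 medium and 8.84-fold higher in M1 medium with IKK16. Its share of the FOS-family RPKM was 46.0% ± 1.66 with DMSO and 65.4% ± 1.34 with IKK16 (SD, n = 3), and the share of *JUN* in the JUN family was 15.5% ± 0.498 and 9.37% ± 0.512, without overlap in either case. *FOSL1* was also higher with IKK16, with 11.5 to 19 counts per library against 6 to 12 with DMSO (1.06 ± 0.38, edgeR adjusted p = 0.0418), but this call on few counts was lost with DESeq2 (adjusted p = 0.106), without a filter (edgeR adjusted p = 0.0689) and without any of the DMSO libraries or IKK16 replicate 2 or 3 (0.0688 to 0.143).

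*IER3*, which M1 medium had not moved past the threshold, was at 3.90, 4.08 and 4.57 CPM with DMSO and 5.78, 5.49 and 6.64 CPM with IKK16 (log2 fold change 0.52 ± 0.13, edgeR adjusted p = 0.00483). Its antisense neighbour *IER3-AS1* was higher too (0.72 ± 0.16, edgeR adjusted p = 0.00158), at 3.59 ± 0.739 CPM with DMSO and 5.90 ± 0.602 CPM with IKK16. *EGR1* was at 17.3, 16.8 and 17.1 CPM with DMSO and 15.4, 17.6 and 16.6 CPM with IKK16. The ranges overlapped, and the approximate 95% interval of its log2 fold change was -0.22 to 0.13 (edgeR adjusted p = 0.763), which excludes a fall of the size seen for *JUN*. *JUND* was at 165, 197 and 229 CPM with IKK16, spanning the DMSO libraries (-0.01 ± 0.09, edgeR adjusted p = 0.969). Compared with control, M1 medium with IKK16 left 8 of the 10 genes higher and none lower, against 26.8% and 25.6% of all genes. *JUND* (0.40 ± 0.09, edgeR adjusted p = 0.00082) and *IER3* (0.38 ± 0.13, edgeR adjusted p = 0.0164) were among the 8. The control held no DMSO, so solvent and inhibitor cannot be told apart in this comparison, and *JUND* was at 198 ± 14.9 CPM with DMSO and 197 ± 31.98 CPM with IKK16 (SD, n = 3). The call of *IER3* was lost without control replicate 3 (0.058) or IKK16 replicate 3 (0.0917).

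Other immediate early genes were read from a list of 28, of which 25 were tested. In M1 medium 15 rose and 6 fell against control, beside 32.7% and 32.1% of all genes, with a median log2 fold change of 0.78. *EGR3*, a relative of *EGR1*, went from 0.131 ± 0.0249 to 1.18 ± 0.229 CPM (3.13 ± 0.41), *IER5L* from 7.55 ± 2.28 to 46.3 ± 5.58 CPM (2.62 ± 0.16) and *SGK1*, a serum- and glucocorticoid-regulated kinase, from 4.14 ± 0.107 to 21.2 ± 0.688 CPM (2.35 ± 0.10). The nuclear receptor gene *NR4A1* (-0.96 ± 0.09), *KLF2* (-0.89 ± 0.15) and the growth arrest gene *GADD45A* (-0.82 ± 0.09) fell. With IKK16 against DMSO 11 of the 25 fell and 2 rose, beside 13.2% and 13.9% of all genes, with a median of -0.22. *EGR3* (-1.13 ± 0.34), *IER5L* (-0.80 ± 0.14) and *SGK1* (-0.79 ± 0.10) fell, and *NR4A1* (0.30 ± 0.09) and *BTG1* (0.17 ± 0.05) rose. *EGR3* and *EGR1* thus had different calls with IKK16. The difference between these genes was not tested.

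**Figure D4:**
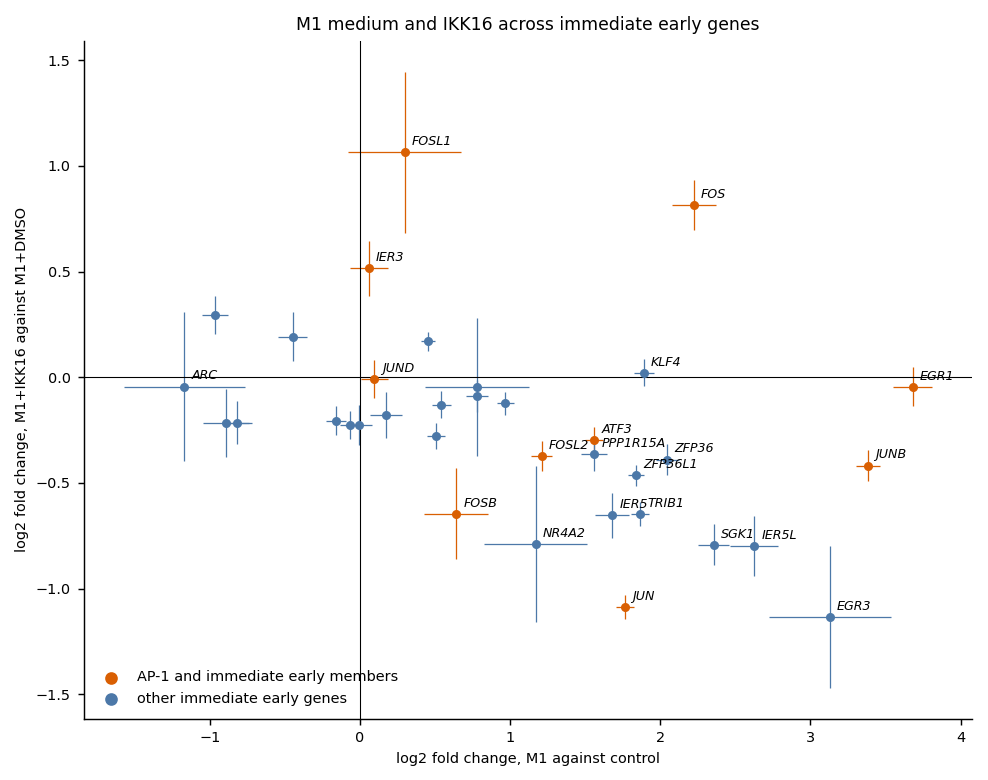
Log2 fold change in M1 medium against control (horizontal axis) and with IKK16 against DMSO in M1 medium (vertical axis) for the 10 genes (orange) and 25 other immediate early genes (blue), with SE bars. Labels are given to the 10 genes and to others with large changes. FOS (2.22 and 0.82) lies in the upper right, EGR1 (3.68 and -0.04) on the horizontal line and JUN (1.77 and -1.09) in the lower right beside IER5L and SGK1.

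Among 20 other basic leucine zipper genes tested, 13 rose and 2 fell in M1 medium (32.7% and 32.1% of all genes), with a median log2 fold change of 0.37. *BATF2* (3.83 ± 0.35) and *BATF3* (3.46 ± 0.44), AP-1 partners best known in immune cells, and *MAFF* (1.94 ± 0.09), a small MAF factor, rose most. *JDP2*, a repressor that pairs with JUN, fell from 33.9 ± 4.4 to 11.4 ± 0.732 CPM (-1.57 ± 0.09), and *ATF5* fell by 0.32. With IKK16 4 of the 20 fell, not far from the 13.2% of all genes that fell, and none rose (13.9% of all genes). Among these were *BATF3* (-1.07 ± 0.34) and *BATF2* (-0.91 ± 0.27).

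MAP kinases and ternary complex factors carry signals to the promoters of immediate early genes. Of 28 such genes, 9 rose and 15 fell in M1 medium (median -0.14). The higher count is near the share of all genes (32.7%), and the lower count is above it (32.1%). *MAP3K8*, a kinase that feeds the ERK branch, rose to 24.4 ± 1.38 from 5.26 ± 0.438 CPM (2.21 ± 0.09), *MAP3K5* rose by 1.25 ± 0.09 and *ELK3* by 0.63 ± 0.08. *MAP2K6*, which activates p38, fell (-3.06 ± 0.13), as did *MAPK10* (-1.18 ± 0.24) and *BRAF* (-0.59 ± 0.10). With IKK16 5 of the 28 rose, a count near the 13.9% of all genes that rose, and none fell, against 13.2% of all genes. *MAP3K8* (0.40 ± 0.08), *MAPK9* (0.25 ± 0.06) and *MAP2K3* (0.20 ± 0.06) were among the 5.

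Of 18 feedback inhibitors of MAP kinases, 7 rose and 6 fell in M1 medium (median -0.04), both near the shares of all genes (32.7% higher and 32.1% lower). *SPRY4*, an inhibitor of receptor tyrosine kinase signalling, rose from 0.174 ± 0.0393 to 21.3 ± 0.288 CPM (6.89 ± 0.18, edgeR adjusted p = 7.24e-20). The ERK phosphatase genes *DUSP6* (4.43 ± 0.24) and *DUSP5* (4.04 ± 0.15) rose as well, while *DUSP4* (-1.70 ± 0.07), *DUSP9* (-1.56 ± 0.14) and *SPRY1* (-1.29 ± 0.14) fell. With IKK16 4 of the 18 rose and 2 fell, where 13.9% of all genes rose and 13.2% fell. *DUSP4* (0.77 ± 0.07), *DUSP6* (0.39 ± 0.14) and *SPRED1* (0.37 ± 0.08) rose, and *DUSP10* (-0.62 ± 0.09) and *DUSP8* (-0.24 ± 0.08) fell.

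Of 26 genes described as AP-1 targets, many of which NF-kB also controls, 17 were tested, and 13 rose and 2 fell in M1 medium (median 2.67), beside 32.7% and 32.1% of all genes. The chemokine gene *CXCL8* went from 0.0440 ± 0.0190 CPM, a level of very few reads, to 13.8 ± 2.69 CPM. It and the matrix protease genes *MMP10* (4.13 ± 0.32) and *MMP13* (3.30 ± 0.25) rose most, and the cyclin gene *CCND1* fell by 0.34. With IKK16 4 of the 17 rose and 2 fell, against 13.9% and 13.2% of all genes, the lower count being near that share. *HBEGF* (0.44 ± 0.12), *CCND1* (0.26 ± 0.06) and *VEGFA* (0.26 ± 0.06) rose, and *CXCL8* (-1.73 ± 0.17) and *CD44* (-1.21 ± 0.23) fell.

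Across the 18 libraries the 10 genes followed different patterns, described by Pearson correlations of log2 CPM that share 6 groups and their depths. *JUNB* and *EGR1* were most alike (r = 0.991), and *JUN* followed *ATF3* (0.954) and *FOSL2* (0.948) more closely than *FOS* (0.745). *IER3* correlated with none of the others above 0.327. Outside the set the genes most like *EGR1* were *LDOC1* and *PIGR*, the polymeric immunoglobulin receptor gene (0.997 each). *PLPP2* and *SLC5A6* were among the closest to *JUNB* (0.998 each), *ITIH4* to *JUN* (0.993), *B2M* (0.995) and *DLGAP1* (0.992) to *ATF3*, *TPCN1* (0.994) to *FOSL2*, and *CES3* (0.987) and *ERO1A* (0.98) to *FOS*. Lower values were found for *FOSB* (*SFXN5*, 0.913, and *NECTIN1*, 0.903), *JUND* (*EEF1A2*, 0.946, and *PTGES2*, 0.941), *FOSL1* (*CLCN5*, 0.799, and *KIFBP*, 0.794) and *IER3* (*IGBP1P1*, 0.805, and *ERICH2-DT*, 0.794).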

How the data were processed

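Polyadenylated RNA of 18 LNCaP libraries was measured. The authors deposited expected counts per RefSeq transcript, in multiples of 0.5 and not normalised; the submitters' processing notes name build hg38, Trimmomatic, BWA 0.7.17 and HOMER 4.10, with no roles. For strand use and reads that match several places, the method is not given in the sources used here. Transcripts were named from an NCBI table (69830) or GENCODE 29 (343); 334, with 0.0883 to 0.109% of a library's counts, stayed unnamed. Each gene was represented by its transcript with most counts, and counts were rounded to whole numbers. RPKM used GENCODE lengths. edgeR 4.0.16 in R 4.3.3 (TMM, filterByExpr, quasi-likelihood, 1 fit of 6 groups, 9 comparisons, Benjamini-Hochberg) tested 17073 genes, two-sided, with 0.05 as the threshold. The script was tested on simulated data. The SE is the log2 fold change over the square root of F, and approximate intervals use it. The 10 genes, lists and naming rule (up to 3 changed genes per direction and list, without overlap and with at least 1 CPM in a group) were chosen with earlier results of these data known. A few genes that the rule names are not reported here. Alternatives were DESeq2 1.42.0, its size factors in edgeR, no filter, 1 CPM in 3 libraries, the 2 groups compared fitted alone, a replicate block, the longest transcript, an offset for transcript length and each library left out. Reads without molecular identifiers are not independent molecules.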

Additional observations from a re-analysis of the deposited data

How the results depend on the processing

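Of 1240 recomputed fold changes of the 10 genes, 1186 stayed on their side of the threshold, 43 lost their call and 11 gained one; none with a call changed direction. The 7 higher genes in M1 medium against control were 6 to 7, and the 7 against M0 medium were 7 throughout. The 9 higher genes against M2 medium ran from 7 to 9. With IKK16 against DMSO the 3 higher genes ran from 2 to 3 and the 5 lower genes from 4 to 5. With IKK16 against control the 8 higher genes ran from 7 to 9. In M2 medium against control, the 1 higher gene became 0 with DESeq2 size factors in edgeR, with the longest transcript, with the length trend removed, when the 2 groups were fitted alone and with the replicate block, and ran from 0 to 1 without single libraries. The 2 lower genes became 0 in a fit of the 2 groups alone and ran from 1 to 2 without single libraries. In M2 against M0 medium 0 lower genes became 1 with DESeq2 and without a filter, and ran from 0 to 1 without single libraries. In M0 medium against control the higher count ran from 0 to 1 without single libraries. With DMSO against M1 medium alone, 0 higher genes became 1 with DESeq2, without a filter, with the length trend removed and when the 2 groups were fitted alone; without single libraries higher and lower counts each ran from 0 to 1. The causes were not tested. Over all alternatives the number of all genes called in M0 medium against control ran from 23 to 1509 higher (1207 as reported) and 7 to 1272 lower (770), in M2 medium from 86 to 1560 (911) and 54 to 1084 (572), in M2 against M0 medium from 0 to 4 (0) and 0 to 45 (18), and with DMSO from 29 to 873 (438) and 47 to 694 (336). With IKK16 against DMSO that number ran from 1852 to 2855 higher (2378) and 1671 to 2769 lower (2256). Over all tested genes, same-numbered libraries did not clearly deviate together in any comparison (correlations of -0.148 to 0.154). The labels do not say whether equal numbers share a culture or batch, and these correlations cannot tell, since part of the genes could still be affected. The replicate block changed no call of the 10 genes except *JUNB* in M2 medium. At 1 CPM in 3 libraries *FOSL1* was not tested.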
